A study of Mus musculus with 16 samples.

Results

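The genes examined here code for 9 C-type lectin receptors of myeloid cells, namely Clec4a1, Clec4a2, Clec4a3, Clec4d, Clec4e, Clec4n, Clec7a, Clec10a and Clec12a. They were chosen by name from the 18580 genes to which the deposited transcripts could be assigned, and all 9 were found. The rule used names and no threshold on a measured value, but the genes were picked with earlier results of these data known. C-type lectin receptors bind sugars, lipids or proteins through a lectin-like domain on the outside of the cell. Some pass the signal on through an activating motif or an Fc receptor chain that recruits the kinase Syk and then Card9, others recruit phosphatases through an inhibitory motif, and others take up the bound ligand. In the brain, Clec7a is best known as a gene that microglia switch on in disease models, whereas most of the others are known from monocytes, neutrophils, dendritic cells and the macrophages at the borders of the brain.

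The study sorted microglia (CD11b+, CD45 low or intermediate) and macrophages (CD11b+, CD45 high) from mouse brains and sequenced their RNA by SMART-seq2, a full-length method for small amounts of RNA. All mice had received α-synuclein into the striatum of both hemispheres at 12 weeks of age and were killed 2 months p.i. They were given either monomeric α-syn (MONO), which was the control, or pre-formed fibrils (PFF), which seed aggregation, and no group without α-syn was sequenced. The mice were either CD163KO, which carry the CD163tm1.1(KOMP)Vlcg allele in every cell, or their C57BL/6N WT littermates, of both sexes. There was 1 table for each of the 16 combinations of population, genotype, treatment and sex, from groups of between 4 and 7 mice, so that the female and the male library of a combination served as its 2 replicates. The macrophage gate (CD11b+, CD45 high) holds, by the study's methods, neutrophils and NK cells beside macrophages of the brain borders and infiltrating ones.

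The total estimated count lay between 8648751 and 21433841 per library. Counts of Cd163, the deleted gene, were between 748 and 5275 in WT macrophages and between 0 and 1 in CD163KO macrophages. In microglia they were low in both genotypes, 0 to 101 in WT and 5 to 23 in CD163KO, and there they did not separate the genotypes. The female CD163KO MONO microglia held 799 counts of Y-linked genes, against 0 to 2 in the other female libraries and 350 to 6545 in the male ones, and thus went against the label. The male WT PFF macrophages had a median correlation with the other macrophage libraries of 0.803, and the male CD163KO MONO macrophages of 0.857, where the other 6 reached at least 0.943. In the microglia of the same 2 combinations Cst3 alone took 19.7% and 18.3% of the counts, against 4.63% to 5.54% in the other 6. The study excluded the male CD163KO MONO samples for technical inconsistency, so that they are shown among the levels but did not enter the tests, which used 14 libraries and had 1 CD163KO MONO library per population. The study also describes batches of mice, a correction for batch and the removal of outlier samples from its own analysis. The labels name neither the batch nor those outliers, so that the fits here could not take account of them.

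Most of the 9 genes lie in a cluster on chromosome 6 (GRCm38.p6). From one end to the other, Clec4a1, Clec4a3, Clec4a2, Clec4n, Clec4d and Clec4e span 368 kb. The span runs from chr6:122921848-122934619 for Clec4a1 to chr6:123281789-123289871 for Clec4e. Only members were placed, and genes that lie between them are not listed here. Clec12a (chr6:129349783-129365303) and Clec7a (chr6:129461591-129472785) form a second group of 123 kb, 6060 kb further on, and Clec10a lies on chromosome 11 (chr11:70166623-70170836). Clec4e and Clec7a are on the minus strand and the other 7 on the plus strand. Clec4a3, Clec4d and Clec4e are members of the same cluster, of which microglia expressed the first and hardly expressed the others. Clec7a was the member whose TMM-scaled levels in microglia, given further on, did not overlap between PFF and MONO. The stretches upstream of these 4 genes are therefore shown. Each holds the 250 bases before a RefSeq transcript start, 5′ to 3′ on the strand of the gene, and the capitals mark the core of the binding motif of PU.1, the main transcription factor of macrophages and microglia, which reads GAGGAA or TTCCTC on the other strand.

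Clec4a3, second start (chr6:122952394-122952643, plus strand): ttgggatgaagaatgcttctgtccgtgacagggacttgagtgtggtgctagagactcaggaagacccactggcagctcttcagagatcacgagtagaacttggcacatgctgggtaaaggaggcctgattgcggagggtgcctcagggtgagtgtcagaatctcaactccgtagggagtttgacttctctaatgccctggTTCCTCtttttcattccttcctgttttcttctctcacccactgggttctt
Clec4d (chr6:123261857-123262106, plus strand): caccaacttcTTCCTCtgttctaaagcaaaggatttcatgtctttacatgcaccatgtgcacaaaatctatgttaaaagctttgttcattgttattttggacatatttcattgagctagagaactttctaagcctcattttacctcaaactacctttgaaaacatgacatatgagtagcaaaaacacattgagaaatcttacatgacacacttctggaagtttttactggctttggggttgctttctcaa
Clec4e (chr6:123289872-123290121, minus strand): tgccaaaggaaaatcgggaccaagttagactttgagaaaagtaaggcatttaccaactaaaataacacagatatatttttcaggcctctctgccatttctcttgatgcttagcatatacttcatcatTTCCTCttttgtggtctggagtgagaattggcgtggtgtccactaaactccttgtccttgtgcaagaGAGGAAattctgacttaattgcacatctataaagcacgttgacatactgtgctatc
Clec7a, first start (chr6:129472780-129473029, minus strand): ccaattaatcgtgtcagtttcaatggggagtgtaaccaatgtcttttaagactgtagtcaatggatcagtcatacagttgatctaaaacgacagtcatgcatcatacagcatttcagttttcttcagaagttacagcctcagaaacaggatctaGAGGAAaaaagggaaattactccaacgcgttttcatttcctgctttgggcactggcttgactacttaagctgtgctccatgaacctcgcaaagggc

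In windows from 250 bases before to 50 bases after the start, the motif was found in 7 of 9 RefSeq windows, which belong to 7 of the 9 genes, and in 6 of these 7 genes. It occurred in 28.1% of all 32544 promoter windows of that length. The 2 windows of Clec7a overlap and hold the same site, at -96 and -90, which was thus counted in both. Those of Clec4a3 overlap as well, so that the 9 windows are not separate observations. Its first base lay at -50 for the second start of Clec4a3, at -123 and -56 for Clec4e and at -96 for the first start of Clec7a, with the start counted as 0. Clec4d had it at -240 and, after the start, at 7 and 39. Clec4a2 and the first start of Clec4a3 had none, and both genes were expressed in every microglia library. The AP-1 motif TGANTCA and the C/EBP motif TTGCNNAA were found in 2 of the 9 windows each, against 7.79% and 10.8% of all windows. Both strands were searched for each motif, and 0 pairs of different motifs overlapped in the 9 windows. A match describes the letters only, and binding was not measured.

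Macrophages expressed all 9 receptor genes in each of their 8 libraries, whereas microglia expressed 3 of them, Clec4a3, Clec4a2 and Clec7a, with a median above 5 FPKM (fragments per kilobase of transcript and sequencing depth, a level that can be compared between genes). In macrophages Clec10a had the highest median at 205 FPKM, followed by Clec4a3 (125), Clec4a1 (107), Clec4n (92.6), Clec12a (89.7), Clec4a2 (52.3), Clec7a (40.6), Clec4d (30.6) and Clec4e (12.9). Neighbours in this order were not always apart, since Clec4n was above Clec12a in 1 of 8 libraries only, and each of the pairs Clec4a3 and Clec4a1, Clec4a1 and Clec4n, Clec4a2 and Clec7a, and Clec4d and Clec4e kept its order in 6 of 8. In microglia Clec4a3 led with 85.2 FPKM, above Clec4a2 (30.2) in 8 of 8 libraries, and Clec4a2 was above Clec7a (18.2) in 6 of 8. Clec4a1 (3.78) and Clec12a (1.29) followed, and the medians of Clec10a (0.245), Clec4n (0.085), Clec4e (0) and Clec4d (0) were near or at 0.

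**Figure D1:**
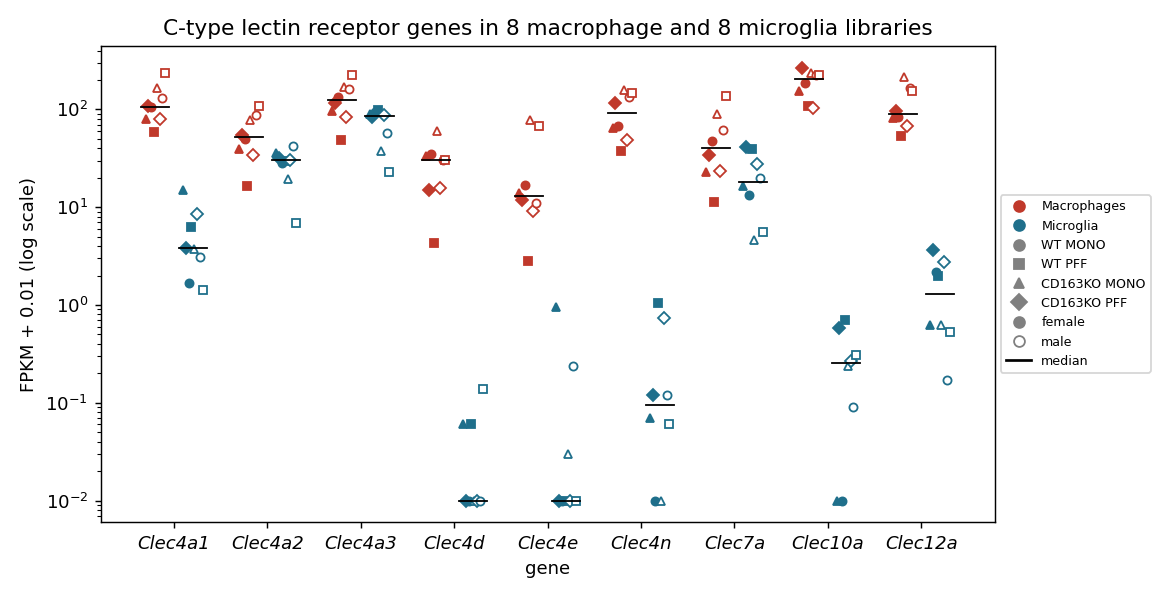
FPKM of the 9 receptor genes in every library, on a log axis after adding 0.01, with the symbol giving genotype and treatment, filled symbols for females and open symbols for males, and a bar at the median of 8 libraries. Clec4a1, Clec4d, Clec4e, Clec4n, Clec10a and Clec12a show no overlap between macrophages and microglia, while Clec4a2, Clec4a3 and Clec7a overlap.

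Beyond the order of levels, the first comparison asked which of the receptors differed between the 2 sorted populations. All 9 were higher in macrophages after TMM scaling (a factor per library that sets the bulk of genes equal), with differences between 2.12 and 10.86 on the log2 scale (edgeR quasi-likelihood test with Benjamini-Hochberg adjustment). Of 12826 genes tested, 14.6% were called higher in macrophages and 23.2% were called in either direction. The median difference was 7.46 over the 9 genes and -0.17 over all genes tested. In bulk RNA, fewer cells of a type and less RNA per cell cannot be told apart.

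**Figure D2:**
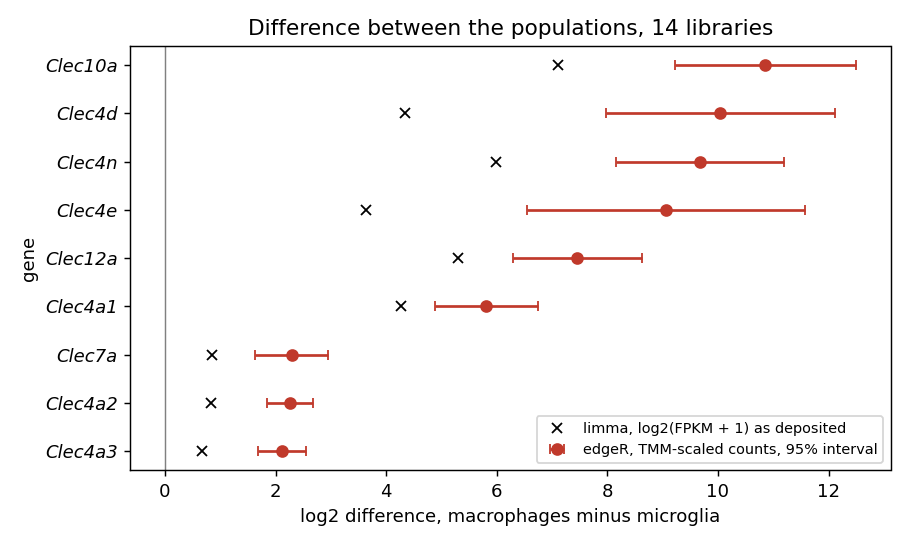
Log2 difference between macrophages and microglia for each receptor gene over 14 libraries, with circles and 95% intervals for the edgeR fit on TMM-scaled counts and crosses for limma on log2(FPKM + 1) without TMM scaling. All circles lie above 2, and the crosses of Clec7a, Clec4a2 and Clec4a3 lie below 1.

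Clec4d, Clec4e and Clec4n are activating receptors of the Clec4 cluster. Clec4d (also called MCL), which pairs with Clec4e, gave 33.5, 59.6, 15.0, 15.8, 35.2, 30.7, 4.29 and 30.6 FPKM in macrophages, in the order female and male CD163KO MONO, female and male CD163KO PFF, female and male WT MONO, and female and male WT PFF. No microglia library held more than 3 counts of it, and 5 of 8 held none, which allows up to 3 counts in each of these 5, or between 0.167 and 0.347 CPM (counts scaled to the same total in every library; counting error only). The female WT PFF macrophages were the lowest of the 8, and were still far above every microglia library. Over the 14 libraries, macrophages held 3419 counts and microglia 5, a CPM ratio of 587 (95% interval of the counts 251 to 1808), and the fitted log2 difference was 10.04 (SE 0.97, adjusted p = 3.51e-06).

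Clec4e codes for Mincle, a receptor for microbial glycolipids and for material from dead cells. In the same order of libraries, macrophages gave 13.9, 77.1, 11.8, 9.05, 16.9, 11.1, 2.82 and 68.0 FPKM. The male CD163KO MONO and male WT PFF macrophages, both of which stood apart above, were higher than the other 6 libraries, whose highest value was 16.9. Microglia held 38 counts in the library labelled female CD163KO MONO, which carried Y-linked counts, 5 in the male WT MONO library, 1 in the male CD163KO MONO library and 0 in the other 5. The fitted log2 difference was 9.07 (SE 1.18, adjusted p = 5.26e-05), and it was 8.49 without the male WT PFF macrophages and 10.67 without the microglia labelled female CD163KO MONO.

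Clec4n codes for Dectin-2, which signals through the Fc receptor gamma chain. It ranged from 37.4 to 158.3 FPKM in macrophages, with a median of 92.6. Microglia held 20 counts in the female WT PFF library and 14 in the male CD163KO PFF library, and at most 2 in the other 6. The 2 populations did not overlap, with 11863 and 39 counts over the 14 libraries, a CPM ratio of 261 (191 to 367) and a log2 difference of 9.67 (SE 0.71, adjusted p = 2.43e-07).

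Clec10a codes for MGL1, a receptor for galactose-type sugars that takes up its ligands. In macrophages it ranged from 102 to 268 FPKM, lowest in the male CD163KO PFF library and highest in the female CD163KO PFF library. After TMM scaling the female CD163KO PFF library was still the highest (395), but the male WT PFF library was the lowest (156). The male CD163KO PFF library was then at 212. In microglia the counts were 0 in both MONO libraries labelled female, of which the CD163KO one carried Y-linked counts, 1 and 6 in the male WT and CD163KO MONO libraries, and 16, 14.1, 8 and 6.07 in the female WT, female CD163KO, male WT and male CD163KO PFF libraries. Clec10a thus had the largest difference of the 9 genes in this fit, 10.86 (SE 0.77, adjusted p = 1.93e-07), and a CPM ratio of 571 (427 to 784). Of its 50-base stretches, 9.02% were shared with other transcripts, mainly those of its neighbour Mgl2, which ranged from 302 to 956 FPKM in macrophages and from 0.64 to 7.73 FPKM in microglia, so that the split of reads between the 2 genes is uncertain.

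Clec12a, an inhibitory receptor of myeloid cells for uric acid crystals, ranged from 53.7 to 213 FPKM in macrophages and from 0.16 to 3.6 FPKM in microglia. Its log2 difference was 7.46 (SE 0.54, adjusted p = 2.33e-07). Clec4a1, a member of the DCIR family (dendritic cell immunoreceptors), ranged from 58.9 to 236 FPKM in macrophages and from 1.42 to 14.8 FPKM in microglia, with a log2 difference of 5.81 (SE 0.43, adjusted p = 2.77e-07). Its highest microglia value again came from the library labelled female CD163KO MONO, and the difference was 6.27 without that library. For both genes the lowest macrophage library was above the highest microglia library.

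The next members along the cluster, Clec4a3 and Clec4a2, were expressed in every library of both populations. Clec4a2 codes for DCIR, which carries an inhibitory motif that recruits phosphatases. Microglia gave 28.5 and 42.2 FPKM of it in the female and male WT MONO libraries, 29.8 and 6.87 in the WT PFF libraries, 36.0 and 19.2 in the CD163KO MONO libraries and 31.9 and 30.6 in the CD163KO PFF libraries. Macrophages ranged from 16.6 to 108 FPKM, and the populations overlapped. After TMM scaling they did not, with 43.4 to 92.9 in macrophages and 14.9 to 23.9 in microglia, and the log2 difference was 2.26 (SE 0.19, adjusted p = 1.15e-06). Clec4a3 ranged from 48.6 to 227 FPKM in macrophages and from 22.9 to 98.0 FPKM in microglia, overlapped as well, and had a log2 difference of 2.12 (SE 0.21, adjusted p = 3.85e-06). The smallest microglia FPKM of both genes were those of the male WT PFF library, which had the highest share of counts in Cst3. After TMM scaling that library was still the lowest for Clec4a2. For Clec4a3 the lowest was then the male WT MONO library at 32.3, with the male WT PFF library at 49.6.

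Clec7a codes for Dectin-1, the receptor for beta-glucans, and was the third member with a substantial level in microglia. It ranged from 11.3 to 138 FPKM in macrophages (median 40.6) and from 4.64 to 40.9 FPKM in microglia (median 18.2). The fitted log2 difference was 2.29 (SE 0.31, adjusted p = 8.00e-05). Without overlap of FPKM, 6 of the 9 genes were higher in all 8 macrophage libraries than in all 8 microglia libraries, against 2.43% of the 11925 genes that reached 1 FPKM in at least 2 libraries. On TMM-scaled FPKM 9 of 9 were, against 5.41% of these genes.

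The calls of Clec4a2, Clec4a3 and Clec7a depended on the scaling. When the TMM factors alone were left out of the edgeR fit, an alternative added after seeing the data, the median difference over all genes was -1.64 in place of -0.17, and 41.7% of genes were called, 630 higher and 4722 lower in macrophages. There Clec4a2 gave 0.88 (edgeR adjusted p = 0.153), Clec4a3 0.76 (adjusted p = 0.193) and Clec7a 0.92 (adjusted p = 0.208), not called, while the other 6 genes were still called. With limma on log2(FPKM + 1) as deposited, the median was -1.05, with 738 genes called higher and 6023 lower. Clec4a2 gave 0.84 (adjusted p = 0.134), Clec4a3 0.68 (adjusted p = 0.175) and Clec7a 0.85 (adjusted p = 0.173), all 3 positive and above that median but not called, and the other 6 genes were called. The 9 calls were made with DESeq2 (26.6% of all genes called), with the 14 libraries left out one at a time, without both male WT PFF libraries (a choice made after seeing the data) and with matched combinations of sex, genotype and treatment as a block.

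**Figure D3:**
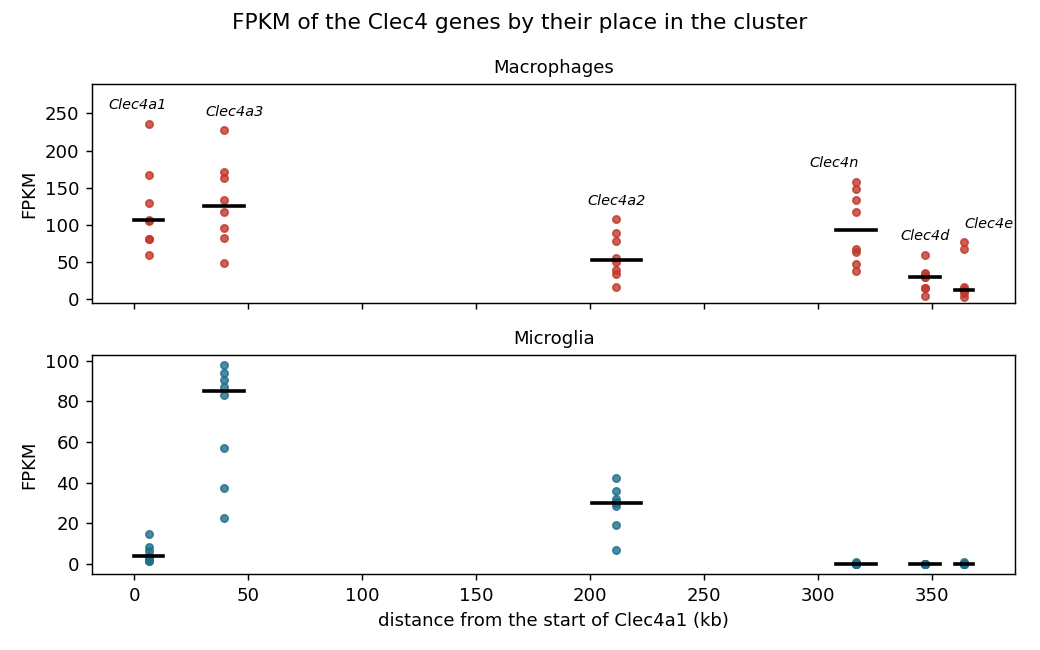
FPKM of the 6 Clec4 genes in 8 macrophage libraries (top) and 8 microglia libraries (bottom) against their distance in kb from the start of Clec4a1, with points for libraries and black bars for the span of the gene at its median. In microglia Clec4a3 and Clec4a2 stand at medians of 85.2 and 30.2 FPKM between members with medians of 3.78 FPKM or less. Genes of the cluster that are not members are not drawn.

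The shorter of the 2 transcripts of Clec4a3 took 14.3% of the gene's estimated counts in macrophages and 34.5% in microglia over all 8 libraries each. Without the excluded male CD163KO MONO libraries the shares were 6.43% and 37.7%, since that macrophage library alone had 51.3%. By library the tested macrophages ranged from 0% to 15.1% and the tested microglia from 0% to 67.0%, and they overlapped. For Clec4a2 the main transcript took 89.1% and 87.7% over all libraries. RSEM divides reads between overlapping transcripts by a model, and these shares were not tested. Clec4a1, Clec4a3, Clec4d, Clec4e and Clec7a shared no 50-base stretch with another gene, and Clec4a2 shared 6.69% of them, mainly with Clec4a4 and Clec4b1.

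Genes on the path from these receptors went in both directions. Of 36 genes of C-type lectin signalling, 35 were tested, and 10 were higher and 5 lower in macrophages, with a median difference of 0.08. The adaptor Fcer1g, the Fc receptor gamma chain used by Clec4e and Clec4n, was higher (2.44, SE 0.70, adjusted p = 0.0194), with medians of 6267 FPKM in macrophages and 2777 FPKM in microglia. The populations overlapped, with 2739 to 8535 FPKM in macrophages and 2411 to 4743 FPKM in microglia. They overlapped after TMM scaling too, with 1891 to 16120 and 1340 to 10280. Medians of these genes are over all 8 libraries of a population, and the differences are over the tested 7. The FPKM medians are as deposited, whereas the differences are after TMM scaling, which can change their direction. The kinase Syk gave -0.15 (SE 0.22, adjusted p = 0.682), and its median was 9.63 FPKM in macrophages and 30.5 FPKM in microglia. After TMM scaling the medians of Syk were 13.3 and 18.5. Card9, which links Syk to NF-κB, was listed at 0 in 2 macrophage libraries and had medians of 0.69 and 18.3 FPKM in macrophages and microglia (0.32 and 19.9 FPKM over the tested libraries, since the excluded macrophage library had 13.3), with a log2 difference of -2.99 (SE 1.05, adjusted p = 0.0523). Ptpn6, the phosphatase that binds inhibitory motifs, gave 0.41 (SE 0.18, adjusted p = 0.119). Its medians in macrophages and microglia were 81.1 and 209 FPKM as deposited, but 134 and 120 after TMM scaling, so that scaling turned their order. Among those called with the lowest adjusted p, the cytokine genes Il1b (4.79, SE 0.34) and Cxcl2 (6.38, SE 0.84) were higher in macrophages, and the phosphatase gene Inpp5d (-1.75, SE 0.18) and the exchange factor gene Vav1 (-1.25, SE 0.19) were lower.

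Of 30 other C-type lectin receptor genes, 25 were tested, and 15 were higher and 1 was lower in macrophages, with a median difference of 6.55. The 5 with the lowest adjusted p were Mgl2 (8.53, SE 0.29), Cd209a (9.92, SE 0.57), the mannose receptor gene Mrc1 (6.55, SE 0.49), Cd209f (8.66, SE 0.74) and Cd93 (6.61, SE 0.70). Mrc1, itself a marker of border-associated macrophages, ranged from 50.1 to 412 FPKM in macrophages and from 0.4 to 12.8 FPKM in microglia. Clec5a, an activating receptor that uses another adaptor, was found in both populations. Its medians were 18.9 FPKM in macrophages and 46.0 FPKM in microglia as deposited, and 24.1 and 28.2 after TMM scaling. The log2 difference, which is after scaling, was -0.08 (SE 0.25, adjusted p = 0.86).

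Markers of several cell types moved with the populations as well. The summed FPKM of 12 neutrophil genes was 22180 to 134700 in macrophages and 1057 to 2876 in microglia. That of 12 monocyte genes was 544 to 3964 against 8.88 to 86.5, that of 12 genes of border-associated macrophages 2252 to 5623 against 40.2 to 237, and that of 11 of 12 genes of NK, T and B cells 44.6 to 226 against 0.45 to 7.12, where Cd3d was at 0 in all 8 microglia libraries. The 12 genes of dendritic cells, which include Cst3, the most abundant gene in all 8 microglia libraries, summed to 19700 to 92370 in macrophages and 61350 to 261600 in microglia, with 6 called higher and 2 lower in macrophages. For 12 genes of disease-associated microglia the sums were 28230 to 162700 and 8836 to 22290, with 6 called higher and 3 lower. These genes include Apoe, the most abundant gene in all macrophage libraries but the female CD163KO MONO one. Their median FPKM by library was 26.7 to 179 in macrophages and 6.07 to 52.4 in microglia, which overlapped. Conversely, 12 genes of homeostatic microglia summed to 1221 to 2830 in macrophages and to 19810 to 46100 in microglia. The macrophage libraries thus carried neutrophil and monocyte transcripts beside those of macrophages, and the part of each cell type in the receptor levels was not tested.

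The treatment comparison asked whether the receptors differed between PFF and MONO within a population. No member was called in either population (edgeR quasi-likelihood test, 0 of 9 in macrophages and 0 of 7 in microglia, where Clec4d and Clec4e were too low to be tested). Over all genes 0% were called in each, and 1.04% in macrophages and 6.01% in microglia had an unadjusted p under 0.05. DESeq2 called 71 and 116 genes (0.479% and 0.648%), none of them a member. In each population 1 member had an unadjusted p under 0.05, Clec4d in macrophages and Clec7a in microglia.

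Clec7a had the clearest difference in microglia. Levels in the treatment and genotype comparisons are in TMM-scaled FPKM unless stated otherwise. On this scale Clec7a was 7.46 in the female WT MONO library and 23.9 in the female WT PFF library. The CD163KO pair labelled female, whose MONO library carried Y-linked counts, gave 9.52 with MONO and 24.6 with PFF, the male WT pair 11.4 and 12.0, and the excluded male CD163KO MONO library 5.44 beside 16.9 with PFF. The PFF value was thus higher in 4 of 4 pairs, and in 3 of 3 without the pair that goes against its label, with a small step in WT males, and the groups did not overlap. The fitted difference was 1.08 (SE 0.33, 95% interval 0.34 to 1.81, edgeR unadjusted p = 0.00839, adjusted p = 0.776). Of the 5 members that reached 1 FPKM in at least 2 of the tested microglia libraries, Clec7a was the only one without overlap, against 9.16% of the 11119 genes.

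Without TMM scaling the male WT pair went the other way. As deposited, Clec7a was 13.4 and 39.4 FPKM in the female WT pair (MONO and PFF), 16.3 and 40.9 in the CD163KO pair labelled female and 4.64 and 27.8 in the male CD163KO pair, but 20.1 and 5.52 in the male WT pair. The difference was then 0.48 (limma, adjusted p = 0.989), and 0.59 in the edgeR fit without TMM factors. With pairs of the same sex and genotype as a block, also added after seeing the data, it was 1.16 (edgeR adjusted p = 0.779). Leaving out 1 library at a time gave between 0.89 and 1.49 with edgeR, with 1.02 without the library labelled female CD163KO MONO, which carried Y-linked counts, 1.18 without the male WT PFF library and 1.07 with no sex term in the fit (added after seeing the data). With the excluded library added it was 1.16. Over 12 other genes of disease-associated microglia, which do not include Clec7a, 0 were called and the median difference was 0.93, against 0.13 over all genes tested. The median was also positive for 12 genes of homeostatic microglia (0.66) and for 9 tested genes of dendritic cells (0.60), with 0 called in each, and it was -0.79 for 12 genes of border-associated macrophages. The summed TMM-scaled FPKM of the border-associated macrophage genes was 98.5 to 134 in the tested MONO microglia and 71.1 to 99.7 in PFF microglia. It was 75.6 in the excluded male CD163KO MONO library. The sum of the neutrophil genes was 736 to 1626 with MONO and 714 to 3184 with PFF. The sum of the monocyte genes was 34.3 to 48.9 in the tested MONO libraries, 17.1 in the excluded one and 18.3 to 50.8 with PFF. The part of these cell types in the Clec7a values was not tested.

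**Figure D4:**
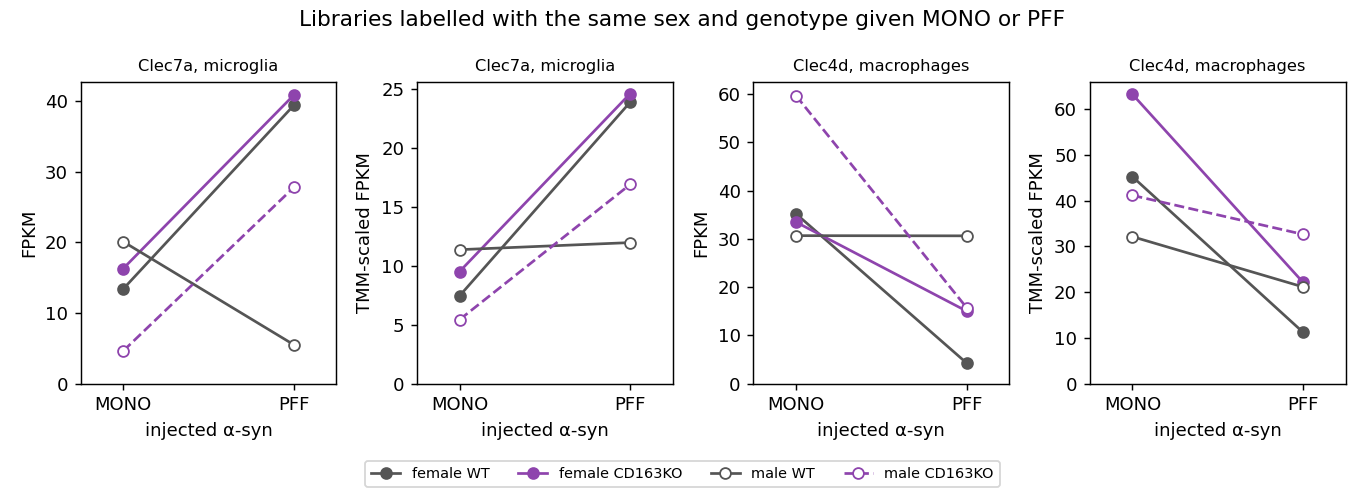
Clec7a in microglia and Clec4d in macrophages in libraries labelled with the same sex and genotype and given MONO or PFF, as deposited FPKM and as TMM-scaled FPKM, with filled symbols for females, open symbols for males and a dashed line for the pair that holds the excluded male CD163KO MONO library. In microglia the MONO library labelled female CD163KO carried Y-linked counts. After scaling, Clec7a is higher with PFF in 4 of 4 pairs and Clec4d lower in 4 of 4 pairs.

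Of the receptors with few counts in microglia, Clec12a, Clec10a and Clec4n passed the filter on low counts. For Clec10a and Clec4n nearly all counts of the tested libraries were in the PFF libraries, through which they passed, so that the sign of their differences is a description only. Clec4e, which was not tested, held 0 counts in all 4 PFF libraries and 0, 38, 5 and 1 in the MONO libraries labelled female WT, female CD163KO, male WT and male CD163KO. Clec12a was 1.21, 0.362 and 0.0905 TMM-scaled FPKM in the MONO libraries labelled female WT, female CD163KO and male WT, and 1.18, 2.17 and 1.13 in the matched PFF libraries. Its fitted difference was 2.07 (95% interval -1.58 to 5.71), that of Clec10a 4.97 (-1.49 to 11.42) and that of Clec4n 3.25 (-2.95 to 9.45), and each interval included 0. With 1 library left out at a time, that of Clec12a ran from 1.15 (without the male WT MONO library) to 3.18 (without the female WT PFF library). Clec4a1 (0.29), Clec4a3 (0.38) and Clec4a2 (-0.16) were closer to 0, but single libraries moved them. Clec4a1 ran from -0.41 without the female WT PFF library to 1.65 without the library labelled female CD163KO MONO, Clec4a3 from 0.016 without the male WT MONO library to 0.64 without the library labelled female CD163KO MONO, and Clec4a2 from -0.29 without the female WT MONO library to -0.011 without the male WT MONO library. Clec4a1 reached 8.65 in the library labelled female CD163KO MONO, against at most 5.13 in the other 7.

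In macrophages Clec4d went the other way. It was 45.2 TMM-scaled FPKM in the female WT MONO library and 11.3 in the matched PFF library, 63.2 and 22.2 in the female CD163KO pair, 32.1 and 21.1 in the male WT pair, and 41.1 and 32.6 in the male CD163KO pair, whose MONO library the study excluded. PFF was lower in 4 of 4 pairs, but the groups overlapped, since 32.6 with PFF lay above 32.1 with MONO. The fitted difference was -1.31 (SE 0.52, 95% interval -2.51 to -0.12, edgeR unadjusted p = 0.0351, adjusted p = 1), and -1.73 to -1.10 with 1 library left out at a time. It was -1.45 without the male WT PFF library and -1.03 with the excluded library added.

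The neutrophil genes had lower values with PFF in 3 of these 4 pairs. Their summed TMM-scaled FPKM was 155700 with MONO and 58220 with PFF in WT females, 186500 and 48510 in CD163KO females and 123800 and 49500 in WT males, but 56720 and 278500 in CD163KO males. The median difference of the 12 neutrophil genes was -0.71, with 0 called, and their part in the Clec4d values was not tested. Across the 14 libraries, with the mean of each population removed, Trem1 (r = 0.98), Stfa2l1 (r = 0.91) and Ceacam10 (r = 0.90) had the log2(FPKM + 1) pattern most like that of Clec4d among 6573 genes. With at most 0.13 FPKM of Clec4d in microglia, these correlations rest almost only on the 7 macrophage libraries. The correlations share libraries and their scaling and are given as a description.

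The other 8 members had fitted differences between -0.28 (Clec4a2) and 0.21 (Clec4a1) in macrophages. Clec4a1 was the 1 member of 9 without overlap, against 5.74% of 9215 genes, with 136, 152 and 136 TMM-scaled FPKM in the female WT, female CD163KO and male WT MONO libraries and 155, 158, 163 and 167 with PFF. The step was small, and its 95% interval ran from -0.47 to 0.89. Clec4e showed the widest spread, from 7.40 in the female WT PFF library to 46.9 in the male WT PFF library, with an interval from -1.84 to 1.63. For Clec7a in macrophages the difference was -0.08 (-1.03 to 0.87). The PFF effect on Clec7a in macrophages minus that in microglia was -1.17 (95% interval -2.42 to 0.09, edgeR adjusted p = 1), so that the effects in macrophages and microglia were not shown to differ.

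**Figure D5:**
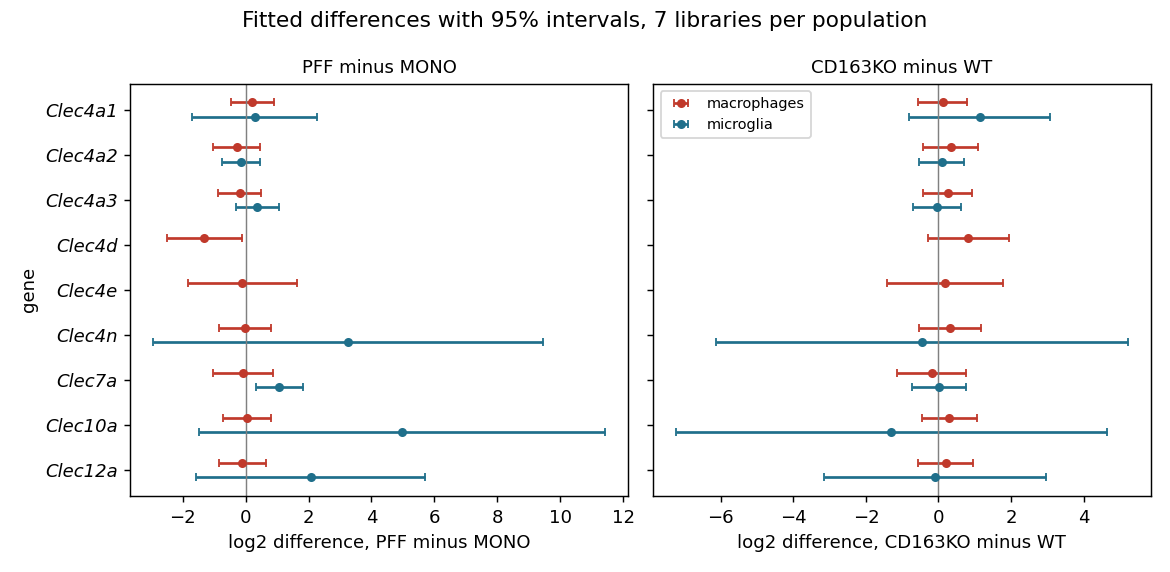
Log2 differences with 95% intervals for PFF minus MONO (left) and CD163KO minus WT (right) in macrophages and microglia, from edgeR fits on 7 libraries per population. The intervals of Clec4d in macrophages and Clec7a in microglia exclude 0 for treatment, none excludes 0 for genotype, and Clec4d and Clec4e have no value in microglia.

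The genotype comparison asked whether loss of CD163 went with other receptor levels. In macrophages 0 of 9 members were called by edgeR, 0 by DESeq2 and 0 had an unadjusted p under 0.05. Over all genes 0.00834% were called by edgeR, which was Cd163 itself, 0.377% by DESeq2, and 0.659% had such a p. Fitted differences ran from -0.19 (Clec7a) to 0.83 (Clec4d, 95% interval -0.30 to 1.95). Clec4d was 63.2, 22.2 and 32.6 TMM-scaled FPKM in the tested CD163KO libraries and 45.2, 32.1, 11.3 and 21.1 in the WT libraries, which overlapped. Clec4a3 was the 1 member without overlap, against 3.87% of genes, with 182, 172 and 172 in the CD163KO libraries and 171, 170, 128 and 157 in the WT libraries. Its difference was 0.25 (-0.43 to 0.93), and the excluded male CD163KO MONO library, at 118, lay below all 7.

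In microglia 0 of 7 members were called by edgeR or DESeq2 and 0 had an unadjusted p under 0.05, against 0% of all genes called by edgeR, 0.358% by DESeq2 and 1.30% with such a p. No member of 5 was free of overlap, against 4.27% of genes. Fitted differences of the 3 well-expressed genes were 0.09 for Clec4a2 (95% interval -0.53 to 0.71), -0.04 for Clec4a3 (-0.71 to 0.62) and 0.01 for Clec7a (-0.73 to 0.75). Those of Clec12a (-0.10), Clec4n (-0.45) and Clec10a (-1.30) rested on few counts. That of Clec4a1 (1.13) rested on 1 library, and it was -0.23 without the microglia labelled female CD163KO MONO.

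The interactions asked whether genotype changed the PFF effect and whether either effect differed between the populations. By edgeR 0 of 9 members were called for genotype by treatment in macrophages (0% of all genes), 0 of 8 in microglia (0.0211%), 0 of 9 for population by treatment (0.0073%) and 0 of 9 for population by genotype (0%). An unadjusted p under 0.05 was found for 0, 0, 4 and 1 members, against 0.453%, 4.77%, 1.65% and 1.22% of all genes. The 4 were Clec4e, Clec4n, Clec10a and Clec12a, each with at most 134 counts in any microglia library, and the 1 was Clec4e. DESeq2 called 1 member, Clec10a, for population by treatment (1.73% of all genes) and none in the other 3 (0.175%, 0.233% and 1.39%). In microglia Clec10a held 0 to 1 counts in the tested MONO libraries and 6.07 to 16 with PFF. The DESeq2 fit used no filter on low counts, and this call rests on these few counts, nearly all from the PFF libraries, so that it is a description only.

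The patterns across libraries placed the other members beside different genes. Clec4e was most like Slfn4 (r = 0.93), Jaml (0.92) and Ripor2 (0.91), and Clec10a most like Clec4n (0.84), Aoah (0.84) and Rgs18 (0.82). Clec7a was most like Sec22b (0.96), Qdpr (0.95) and Gnpda1 (0.94), Clec4a2 most like Ggnbp2 (0.99), Ube2n (0.98) and Pycard (0.98), and Clec4a3 most like Rab32 (0.98), Ssr2 (0.97) and Tmem141 (0.97). Clec4a1 was most like Seh1l (0.91), Cyb5r4 (0.91) and Srp54b (0.89), Clec12a most like Aldh3b1 (0.92), Batf (0.92) and Srp68 (0.90), and Clec4n most like Akr1c13 (0.90), Rgs18 (0.89) and Hsd11b1 (0.85). All values are Pearson correlations over the same 14 libraries, with each population mean removed, and 6573 genes with a mean of at least 5 FPKM. They carry the scaling of each library. Clec4e, Clec4n and Clec10a reached at most 0.94, 1.05 and 0.69 FPKM in microglia, so that their correlations rest almost only on the 7 macrophage libraries.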

How the data were processed

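RNA of sorted brain macrophages and microglia was sequenced by SMART-seq2, and 16 tables of RefSeq transcripts, 1 per library, were used. Per the submitters' processing notes and methods, reads were mapped with Bowtie2 and quantified with RSEM, with mm10 as the genome. The deposited values are estimated counts, made by the authors with RSEM and not normalized, and FPKM, scaled by the authors to transcript length and mapped reads. Transcripts not listed were taken as 0. The methods speak of triplicates, and whether a table pools them was not stated, so that p-values measure the spread between these libraries, which may be partly technical.

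Transcripts were matched to symbols through RefSeq (27632 of 27787) and summed to 18580 genes. Estimated counts were rounded and tested with edgeR 4.0.16 (R 4.3.3, TMM, filterByExpr, quasi-likelihood test, Benjamini-Hochberg, adjusted p of at most 0.05). Within a population, sex, genotype and treatment were fitted over 7 libraries with 3 residual degrees of freedom, or 2 with their interaction. The population comparison used 14 libraries. TMM-scaled FPKM is the FPKM divided by the TMM factor, which was 0.381 to 1.45 in macrophages and 0.461 to 1.80 in microglia. The alternatives were DESeq2 1.42.0, its size factors in edgeR, no filter on low counts, limma 3.58.1 on log2(FPKM + 1) and log2(FPKM + 0.1) with an FPKM of at least 1 in at least 2 libraries, a log2 limit of 1, all 16 libraries, each library left out, and matched combinations as a block. Leaving out both male WT PFF libraries, edgeR without TMM factors or without the sex term, and pairs of libraries as a block were added after seeing the data. Intervals of count ratios are exact and cover counting error only.

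The members and the lists were chosen with earlier results of these data known. All 9 members, up to 5 called genes of each receptor and signalling list with the lowest adjusted p, 7 related genes by level and the 3 genes most like each member were named, except that some results are not reported here. Tested on simulated data with the observed spread, the fit recovered 62% of 8-fold and 6% of 2-fold changes for population (12826 genes), and 27% and 1% for treatment in macrophages (11988 genes). Upstream sequences are RefSeq's for GRCm38.p6, with windows for 7 of the 9 genes, so that Clec4n and Clec10a have none here.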

Additional observations from a re-analysis of the deposited data

Results flagged for a closer look

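The male CD163KO MONO libraries, which entered no test, held 3 members at more than 2 times the level of both WT MONO libraries, in TMM-scaled FPKM. Clec4e in macrophages was 53.15, against 11.59 and 21.78 in WT MONO. Clec4a1 in microglia was 4.359, against 0.9168 and 1.747. Clec10a in microglia was 0.2695, from 6 counts, against 0 and 0.04523.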

How the results depend on the processing

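All 9 members were called higher in macrophages under each alternative except limma on FPKM and edgeR without TMM factors, where 6 were. The number of genes called for population was 2979, and 4855 with DESeq2, 5352 without TMM factors, 6761 and 6582 with limma at pseudocounts of 1 and 0.1, 5017 without both male WT PFF libraries (chosen after seeing the data) and 2504 to 4964 with each library left out, the highest without the male WT PFF macrophages. The matched-combination block changed no member's call. The replicates of a combination are its female and male library, and sex as labelled was a term of each fit within a population. With no sex term (added after seeing the data, since the microglia labelled female CD163KO MONO carried Y-linked counts) no member's call changed, and 0 genes were called for genotype by treatment in microglia in place of 3. Pairs of the same sex and genotype for treatment, and of the same sex and treatment for genotype, as a block (added after seeing the data) used the labelled sex too and gave 0 called members in each, and 0, 0, 1 and 0 genes for treatment in macrophages and microglia and genotype in macrophages and microglia. The fit left 2 residual degrees of freedom, and the excluded libraries' partners added nothing to the difference.

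No member was called for treatment or genotype in either population under any alternative run. Without TMM factors (added after seeing the data) 1, 3, 2 and 0 genes were called in these 4 comparisons, and the median over all genes moved from -0.11, 0.13, 0.14 and -0.04 to -0.43, -0.38, -0.16 and 0.41. Genes called for treatment were 71 with DESeq2, 1 and 4 with limma at the 2 pseudocounts and 0 to 4 with a library left out in macrophages, and 116 with DESeq2, 11 without the filter, 1 with limma at a pseudocount of 1 and 0 to 1 with a library left out in microglia. For genotype they were 56 with DESeq2, 4 and 5 with limma and 0 to 5 with a library left out in macrophages, and 64 with DESeq2 and 19 without the filter in microglia. For genotype by treatment they were 23 with DESeq2, 3 and 5 with limma and 2 to 3378 with a library left out in macrophages, the highest without the female WT PFF library, where 1 member (Clec4e, 0 otherwise) was called, and 36 with DESeq2, 1 with its size factors, 105 without the filter, 1 with limma at a pseudocount of 0.1, 0 with all libraries and 1 to 411 with a library left out in microglia, the highest without the female WT MONO library. For population by treatment they were 291 with DESeq2 (1 member, Clec10a), 0 with limma and with all libraries, 3 without both male WT PFF libraries and 0 to 1 with a library left out, and for population by genotype 253 with DESeq2 and 1 without the filter.

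The sign of several uncalled differences turned, and the cause was not tested. With limma at pseudocounts of 1 and 0.1, these were in macrophages Clec4a1 (-0.032 and -0.034) and Clec10a (-0.20 with both) for treatment and Clec4a1 (-0.30 with both), Clec4a2 (-0.088 and -0.080), Clec4a3 (-0.16 with both), Clec4e (-0.11 and -0.038), Clec4n (-0.10 with both), Clec10a (-0.099 and -0.10) and Clec12a (-0.18 with both) for genotype, and in microglia Clec4a1 (-0.24 and -0.25) and Clec4a3 (-0.25 with both) for treatment and Clec4a3 (0.46 and 0.47) and Clec12a (0.35 and 0.60) for genotype. With all libraries they were Clec4a3 (0.054) and Clec4n (0.071) for treatment and Clec4a1 (-0.020) for genotype in macrophages, and Clec4a3 (0.082), Clec7a (-0.087), Clec10a (0.56) and Clec12a (0.36) for genotype in microglia. Without TMM factors they were in macrophages Clec4e (0.040), Clec7a (0.024) and Clec10a (-0.078) for treatment and Clec4a1 (-0.36), Clec4a2 (-0.13), Clec4a3 (-0.24), Clec4e (-0.51), Clec4n (-0.045), Clec10a (-0.072) and Clec12a (-0.16) for genotype, and in microglia Clec4a1 (-0.12) and Clec4a3 (-0.15) for treatment and Clec4a3 (0.47) and Clec12a (0.80) for genotype. With no sex term they were Clec4e (0.19), Clec7a (0.093) and Clec10a (-0.0050) for treatment and Clec4e (-0.012) for genotype in macrophages, and Clec12a (0.023) for genotype in microglia. With pairs as a block they were Clec4n for treatment in macrophages (0.087) and for genotype in microglia (0.17). Clec7a for genotype in microglia was -0.0019 with DESeq2 and -0.0020 with its size factors. With each library left out, the ranges that crossed 0 were Clec4e (-0.96 to 0.67), Clec4n (-0.22 to 0.37), Clec7a (-0.39 to 0.35), Clec10a (-0.14 to 0.36) and Clec12a (-0.44 to 0.18) for treatment in macrophages, Clec4a1 (-0.41 to 1.65) for treatment in microglia, Clec4e (-0.43 to 0.99) and Clec7a (-0.64 to 0.11) for genotype in macrophages and Clec4a1 (-0.23 to 1.79), Clec4a2 (-0.028 to 0.26), Clec4a3 (-0.31 to 0.14), Clec4n (-1.41 to 0.16), Clec7a (-0.15 to 0.22) and Clec12a (-0.78 to 0.85) for genotype in microglia. Where a group kept 1 library, that library is assumed to vary like the others.

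The limits are few libraries and unequal ones. Each combination had 1 library per sex, 3 residual degrees of freedom were left within a population, and simulated 2-fold changes were mostly missed, so that a missing call does not show equal levels. In microglia no library held more than 3 counts of Clec4d, 38 of Clec4e, 20 of Clec4n or 16 of Clec10a, and Clec4d and Clec4e were not tested there for treatment or genotype.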
